A study of Homo sapiens with 12 samples.

Results

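Amino acid transporter transcripts were followed in IMR32, a human neuroblastoma cell line with amplified MYCN, after siRNA against 2 transcription factor genes, MYCN and HAND2. The set consists of 10 solute carrier genes of the 27514 genes listed in the deposited CPM table (CPM: read counts scaled to the size of the library): SLC38A5, SLC7A2, SLC7A1, SLC7A5, SLC3A2, SLC7A11, SLC1A5, SLC38A1, SLC38A2 and SLC43A1. It was drawn up around SLC38A5 and SLC7A2 because they fell furthest with the MYCN siRNA: it was chosen by measured CPM values in siMYCN against siCtrl, so every member's value in that comparison is given as a description and carries no test. All 10 had a mean of at least 1 CPM over the 12 samples and were tested in the other comparisons.

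Each of 4 groups held 3 samples, taken 72 h after electroporation of the siRNA: a control siRNA (siCtrl), the MYCN siRNA (siMYCN), the HAND2 siRNA (siHAND2), and both siRNAs (the combined knockdown). All groups were the same single cell line in the same glutamine-containing serum medium. The labels name no other siRNA against either gene, so loss of the target and other effects of an siRNA cannot be told apart. Nothing states that the 3 samples of a group came from separate cultures, so p-values measure the spread between these samples, which may be technical.

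Amino acids are charged, polar or bulky and cross the plasma membrane mainly through carriers. Carriers of the SLC38 family and SLC1A5 move glutamine and other small neutral amino acids, those of the SLC7 family move cationic amino acids alone or, paired with the SLC3A2 heavy chain, exchange large neutral amino acids or cystine, and SLC43A1 carries large neutral amino acids by facilitated diffusion. Cells that make protein, nucleotides and glutathione at a high rate draw on this import, and MYC family factors, which bind the E-box CACGTG, are known to act on several carrier genes, including those of glutamine. MYCN is a defining oncogene of high-risk neuroblastoma, and HAND2 is a factor of sympathetic neuron identity.

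The MYCN transcript stood at 1009 ± 42.6 CPM (SD, n = 3) in siCtrl, 682 ± 22.8 with siMYCN, 849 ± 48.7 with siHAND2 and 482 ± 64.3 with both siRNAs. HAND2 stood at 239 ± 15.3, 326 ± 7.50, 62.3 ± 7.06 and 73.5 ± 11.1 CPM in the same order, so MYCN was lowered in part and HAND2 by more. Both overlap a listed antisense gene, MYCNOS (mean 18.4 CPM) and HAND2-AS1 (mean 121 CPM). Estimated depth was 31.6 to 64.2 M reads a sample. The share of reads that lay in listed genes was 65.1% ± 0.74 in siCtrl, 62.4% ± 0.98 with siMYCN, 59.4% ± 2.39 with siHAND2 and 51.4% ± 7.04 with both siRNAs, with the lowest share, 44.3%, in combined replicate 3. CPM is scaled to all reads, so this library and its group have a lower sum of CPM over the listed genes. The median log2 change of all 12680 tested genes was −0.15 in the combined knockdown against siHAND2, with 31.5% called lower and 8.75% higher. Whether the lower share of reads or a broad change of expression lay behind this median was not tested. Each member's comparisons are therefore given both as deposited and after median-ratio rescaling, in which each sample's factor is the median, over genes, of its level relative to the geometric mean of all samples, and which brought that median to 0.03. Of 8 noradrenergic neuroblastoma markers, 7 were at 1 CPM or more in siCtrl, with TH under 1 CPM. In siHAND2 and the combined knockdown the marker under 1 CPM was DBH. The summed level of 6 mesenchymal or Schwann-like markers was 14.3 to 17.7 CPM in siCtrl, 13.0 to 14.9 in siMYCN, 4.86 to 6.39 in siHAND2 and 2.12 to 3.27 in the combined knockdown, with PRRX1, FOSL1 and S100B under 1 CPM in all 4 groups. Whether these markers came from a separate cell population, and whether that had a part in the transporter changes, was not tested. In bulk RNA, fewer cells that express a gene and less of its RNA per cell cannot be told apart. All leukocyte and epithelial markers were under 1 CPM in every group.

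Promoter windows, the 250 bases before an annotated start in the RefSeq table of GRCh38.p14, were held for 8 of the 10 genes, all but SLC7A2 and SLC7A11, in 14 windows. The E-box CACGTG, which reads the same on both strands, occurred in 4 of these windows, 1 each of SLC38A5, SLC43A1, SLC7A5 and SLC1A5. Over all promoters it occurred in 6.34% of 35116 windows and in at least 1 window of 7.73% of 27305 genes. The motif begins 206 bases before the start in SLC38A5, 112 in SLC43A1, 130 in SLC7A5 and 50 in the window of SLC1A5 that holds it. TGATGNAA, the composite element bound by the amino acid response factor ATF4, was searched on both strands and occurred in 1 window, of SLC1A5, against 3.14% of all windows. A match is a description of letters and not a bound site. The 4 members with the E-box had lower mean levels in siMYCN than in siCtrl. So did SLC7A1, SLC3A2 and SLC38A1, whose windows held none, while SLC38A2, also without it, was higher. That comparison chose the set, so nothing is read from this. The 3 stretches below are those that hold it in a member's first listed window, which leaves out SLC1A5, and the E-box is in capitals. All are on the minus strand and read 5′ to 3′ toward the gene. Their GRCh37 positions are chrX:48328649-48328898 for SLC38A5, chr11:57283176-57283425 for SLC43A1 and chr16:87903114-87903363 for SLC7A5.
SLC38A5: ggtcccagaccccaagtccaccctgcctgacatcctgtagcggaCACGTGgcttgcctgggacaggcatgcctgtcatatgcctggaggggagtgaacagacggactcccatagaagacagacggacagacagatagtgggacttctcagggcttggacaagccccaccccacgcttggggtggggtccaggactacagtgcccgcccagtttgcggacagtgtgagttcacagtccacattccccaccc
SLC43A1: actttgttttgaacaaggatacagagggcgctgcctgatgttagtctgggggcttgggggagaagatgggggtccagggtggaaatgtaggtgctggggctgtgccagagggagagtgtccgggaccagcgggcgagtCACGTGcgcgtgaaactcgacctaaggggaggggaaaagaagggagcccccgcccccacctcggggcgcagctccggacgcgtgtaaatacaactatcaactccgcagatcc
SLC7A5: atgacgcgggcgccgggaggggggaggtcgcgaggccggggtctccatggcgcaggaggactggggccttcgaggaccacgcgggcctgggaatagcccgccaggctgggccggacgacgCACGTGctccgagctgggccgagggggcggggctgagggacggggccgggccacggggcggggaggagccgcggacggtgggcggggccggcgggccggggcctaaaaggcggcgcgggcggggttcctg

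SLC38A5 and SLC7A2, the pair around which the set was chosen, stood lower than siCtrl with each siRNA and lowest with both. SLC38A5 (X:48316920-48328645, hg19, minus strand) encodes a sodium-coupled carrier that exchanges glutamine, serine and other small neutral amino acids against protons. Its level was 41.9, 40.8 and 44.1 CPM in siCtrl replicates 1 to 3, 9.84, 8.67 and 9.32 with siMYCN, 23.1, 21.7 and 21.1 with siHAND2 and 6.11, 5.05 and 4.02 with both siRNAs. No group overlapped another, and the order from high to low was siCtrl, siHAND2, siMYCN and combined. The means were 22.0% of siCtrl with siMYCN, 52.0% with siHAND2 and 12.0% with both siRNAs (22.1%, 58.1% and 15.2% after rescaling).

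The comparison of the combined knockdown with siHAND2 sets against each other no sample of the comparison that chose the genes, and it asks what the MYCN siRNA did where the HAND2 siRNA was also present. Its p-values rest on a spread estimated from all 12 samples, those of the choice included. Against siHAND2, SLC38A5 stood at 23.0% in the combined knockdown, a log2 change of −1.94 (SE 0.12, limma adjusted p 2.1e-11), and at 26.1% after rescaling (−1.77, limma adjusted p 2.2e-09). With the HAND2 siRNA alone it fell by 0.91 on the log2 scale against siCtrl (SE 0.12, limma adjusted p 7.9e-07), or by 0.76 after rescaling. That comparison shares the siCtrl samples with the one that chose the genes. Against siMYCN, whose samples also entered the choice, SLC38A5 was lower again in the combined knockdown by a log2 change of −0.77 (limma adjusted p 4.9e-06), or −0.47 after rescaling (limma adjusted p 3.1e-05).

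SLC7A2 (8:17354597-17428078, plus strand) encodes CAT2, a carrier of arginine, lysine and ornithine. It stood at 38.8, 39.8 and 37.1 CPM in siCtrl, 12.8, 13.4 and 11.1 with siMYCN, 21.0, 19.6 and 18.5 with siHAND2 and 4.89, 5.23 and 4.05 with both siRNAs. Here too no group overlapped another, and the order of the groups was that of SLC38A5. The means were 32.3%, 51.0% and 12.2% of siCtrl (32.5%, 56.9% and 15.7% after rescaling). Against siHAND2 the combined knockdown stood at 24.0%, a log2 change of −1.86 (SE 0.11, limma adjusted p 2.1e-11), and at 27.6% after rescaling (−1.69, limma adjusted p 1.3e-08). The HAND2 siRNA alone lowered it by a log2 change of −0.94 (limma adjusted p 2.5e-07), or −0.78 after rescaling. Against siMYCN the combined level was lower by a log2 change of −1.23 (limma adjusted p 9.7e-10), or −0.93 after rescaling.

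**Figure D1:**
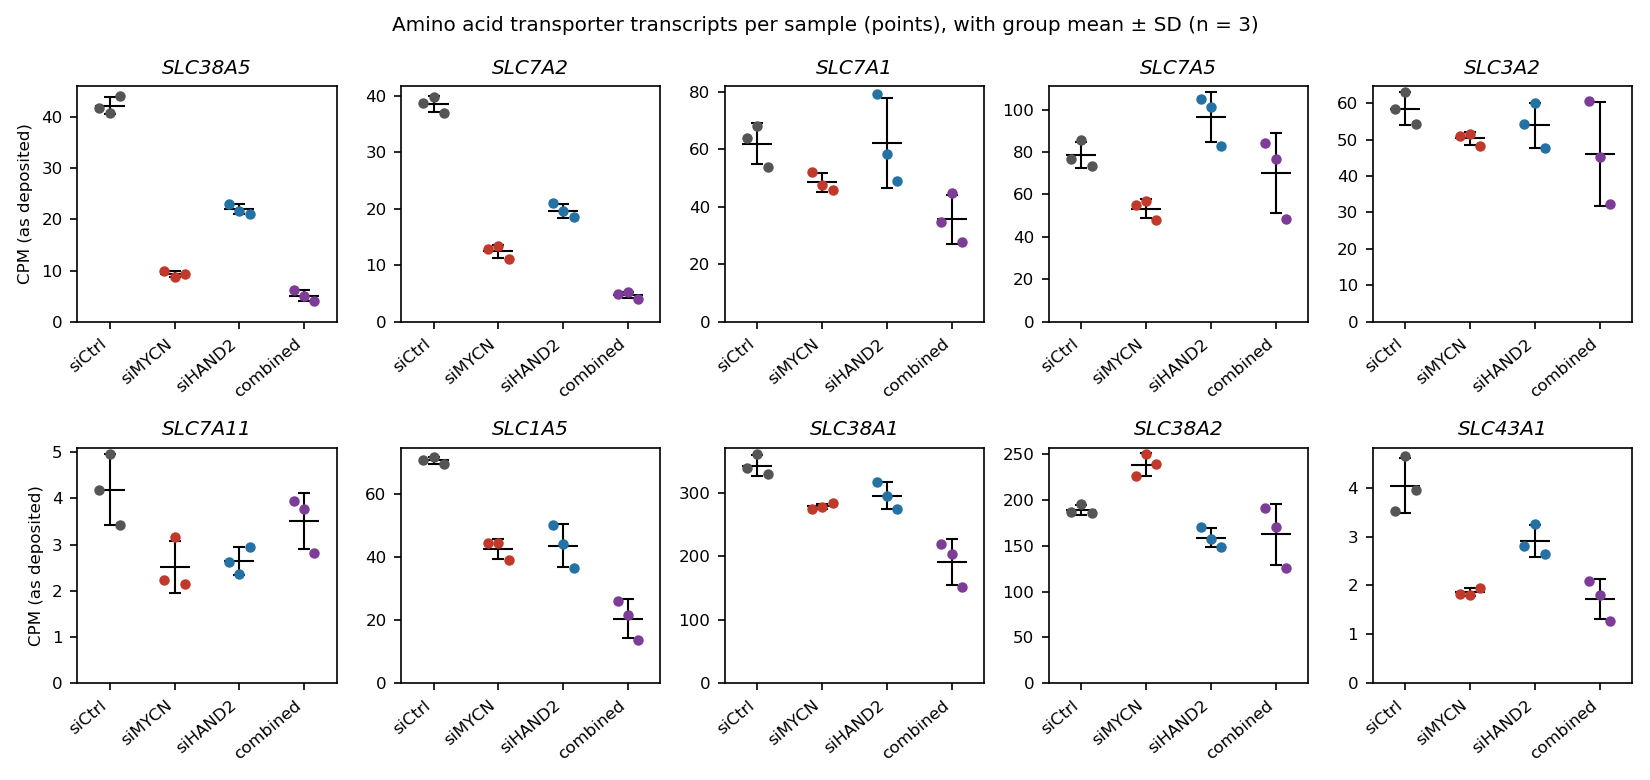
Level of each transporter transcript in CPM as deposited (y axis, from 0) in the 4 groups (x axis). Points are samples in the order of their replicate numbers, and bars are the mean ± SD of 3 samples. SLC38A5 and SLC7A2 show 4 groups that do not overlap, from 42.3 and 38.6 CPM in siCtrl down to 5.06 and 4.72 in the combined knockdown, while SLC38A2 is highest in siMYCN at 239 CPM.

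SLC7A1 (13:30083551-30169826, minus strand) encodes CAT1, the widely expressed cationic amino acid carrier, and, unlike its relative SLC7A2, was not called with the HAND2 siRNA alone. Its level was 64.0, 68.1 and 53.9 CPM in siCtrl, 52.2, 47.5 and 45.9 with siMYCN, 79.4, 58.3 and 49.0 with siHAND2 and 34.5, 44.7 and 27.8 with both siRNAs. The siHAND2 samples spread across the whole siCtrl range and beyond it, with a log2 difference of −0.02 (limma adjusted p 0.94) that was 0.14 after rescaling. All 3 combined samples lay below all 3 siHAND2 samples, at 57.3% of their mean, a log2 change of −0.78 (SE 0.16, limma adjusted p 3.0e-04), or −0.59 after rescaling (limma adjusted p 0.0045). Against siMYCN the change of −0.46 (limma adjusted p 0.015) was −0.11 after rescaling (limma adjusted p 0.53) and −0.29 without combined replicate 3 (limma adjusted p 0.089). Nor was it called with no filter (limma adjusted p 0.084) or without siMYCN replicate 1 (−0.40, limma adjusted p 0.059).

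Of the carriers of glutamine, SLC1A5 and SLC38A1 fell in the combined knockdown against siHAND2, and SLC38A2 was not lower there on either scale. SLC1A5 (19:47278140-47291843, minus strand) encodes ASCT2, an exchanger of glutamine, alanine, serine and cysteine. It stood at 70.9, 71.9 and 69.6 CPM in siCtrl, 44.6, 44.4 and 39.1 with siMYCN, 50.2, 44.3 and 36.6 with siHAND2 and 26.0, 21.8 and 13.7 with both siRNAs. The siMYCN and siHAND2 ranges overlapped, siCtrl lay above both and the combined knockdown below both. The combined level was 46.9% of siHAND2, a log2 change of −1.09 (SE 0.16, limma adjusted p 6.0e-06), or −0.90 after rescaling (limma adjusted p 1.3e-05). The HAND2 siRNA alone gave a log2 change of −0.69 (limma adjusted p 8.1e-04), or −0.54 after rescaling, and the combined knockdown against siMYCN −1.07 (limma adjusted p 2.8e-06), or −0.73 after rescaling.

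SLC38A1 (12:46576840-46663209, minus strand) encodes SNAT1, a sodium-coupled importer of glutamine and alanine found in neurons. Its level was 338, 361 and 329 CPM in siCtrl, 275, 277 and 283 with siMYCN, 317, 294 and 275 with siHAND2 and 219, 203 and 151 with both siRNAs. The combined samples lay below all others. Against siHAND2 they stood at 64.7%, a log2 change of −0.64 (SE 0.13, limma adjusted p 2.6e-04), or −0.44 after rescaling (limma adjusted p 3.8e-05). The difference of −0.22 between siHAND2 and siCtrl was not called (limma adjusted p 0.17) and was −0.06 after rescaling. Without combined replicate 3, which is in neither group but enters the shared estimate of the spread, the same difference was called (limma adjusted p 0.025).

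SLC38A2 (12:46751971-46766646, minus strand) lies beside SLC38A1 on chromosome 12 and encodes SNAT2, the member of this family whose transcript is known to rise when amino acids are short. It stood at 187, 195 and 186 CPM in siCtrl, 226, 251 and 240 with siMYCN, 170, 158 and 149 with siHAND2 and 191, 170 and 126 with both siRNAs. It was the member that stood higher in siMYCN than in siCtrl, at 126%, with no overlap. Between the combined knockdown and siHAND2 the log2 difference was 0.01 (limma adjusted p 0.95) as deposited, with overlapping groups, and 0.21 after rescaling, with all combined samples above (limma adjusted p 0.014). Against siMYCN it was lower in the combined knockdown by a log2 change of −0.57 (limma adjusted p 5.4e-04), or −0.22 after rescaling (limma adjusted p 0.0078). The difference of −0.25 between siHAND2 and siCtrl was not called (limma adjusted p 0.12). It was −0.09 after rescaling (limma adjusted p 0.23), with overlapping groups. As deposited it was called without combined replicate 3 (limma adjusted p 0.010) and without combined replicate 1 (limma adjusted p 0.043).

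SLC7A5, SLC7A11 and SLC3A2 form heterodimers: SLC3A2 (4F2hc, CD98) is the heavy chain that brings either light chain to the membrane. The light chain SLC7A5 (LAT1; 16:87863622-87903106, minus strand) exchanges leucine and other large neutral amino acids. It stood at 76.9, 85.6 and 73.3 CPM in siCtrl, 54.9, 56.9 and 48.2 with siMYCN, 105, 101 and 83.1 with siHAND2 and 84.2, 76.9 and 48.5 with both siRNAs. The siMYCN samples lay below the siCtrl samples, at 67.9% of their mean, and siHAND2 had the highest mean, 123% of siCtrl. That difference of 0.29 on the log2 scale was not called as deposited (limma adjusted p 0.13), and was 0.45 after rescaling (limma adjusted p 0.0022), with siHAND2 then wholly above siCtrl. Without combined replicate 3 it was called as deposited too (limma adjusted p 0.013). Against siHAND2 the combined knockdown was lower by a log2 change of −0.49 (limma adjusted p 0.012), or −0.29 after rescaling (limma adjusted p 0.027), with overlapping groups on both scales. The deposited call against siHAND2 was lost without combined replicate 3 (−0.25, limma adjusted p 0.062) and without siHAND2 replicate 2 (−0.45, limma adjusted p 0.050). It was also lost with no filter (limma adjusted p 0.074), and the rescaled call was lost without combined replicate 3 (−0.17, limma adjusted p 0.12). Against siMYCN the combined level was higher, by 0.35 as deposited with overlapping groups (limma adjusted p 0.049), and by 0.69 after rescaling with none (limma adjusted p 4.9e-05). The deposited call was lost with a pseudocount of 0.1 (limma adjusted p 0.051), without the trend (0.051), without a filter (0.16), with only the compared groups (0.067), and without any single siCtrl or siMYCN sample, siHAND2 replicate 2 (0.058), or combined replicate 1 (0.20 on the log2 scale, limma adjusted p 0.26) or 2 (limma adjusted p 0.20).

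The light chain SLC7A11 (xCT; 4:139085248-139163504, minus strand) exchanges cystine for glutamate and so feeds glutathione synthesis. It was a low transcript, at 4.19, 4.95 and 3.42 CPM in siCtrl, 2.24, 3.16 and 2.14 with siMYCN, 2.63, 2.35 and 2.95 with siHAND2 and 3.94, 3.78 and 2.83 with both siRNAs. Both single knockdowns lay below siCtrl with no overlap, and the combined knockdown overlapped siCtrl and each of them as deposited. The fall in siHAND2 was a log2 change of −0.50 (SE 0.14, limma adjusted p 0.0050), or −0.37 after rescaling (limma adjusted p 0.025). The combined level was 133% of siHAND2, a log2 difference of 0.30 that was not called as deposited (limma adjusted p 0.082). It was 0.46 after rescaling (limma adjusted p 0.0085), with all combined samples above all siHAND2 samples, and 0.42 as deposited without combined replicate 3 (limma adjusted p 0.022). Against siMYCN it was higher by 0.36 (limma adjusted p 0.027), or 0.63 after rescaling (limma adjusted p 8.3e-04). The deposited call was lost without siMYCN replicate 1 (limma adjusted p 0.097) or 3 (limma adjusted p 0.12), or without combined replicate 1 (limma adjusted p 0.097) or 2 (limma adjusted p 0.094). It was also lost with no filter (limma adjusted p 0.092). The antisense gene SLC7A11-AS1 overlaps it and had a mean of 0.0743 CPM.

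SLC3A2 (11:62623484-62656356, plus strand) is the common heavy chain. Its level was 58.3, 63.2 and 54.2 CPM in siCtrl, 51.1, 51.6 and 48.2 with siMYCN, 54.4, 59.9 and 47.6 with siHAND2 and 60.5, 45.3 and 32.2 with both siRNAs. Among the combined samples the highest and the lowest differed by more than in any other group, and this group overlapped all others. The log2 difference was −0.12 in siHAND2 against siCtrl (limma adjusted p 0.55), −0.26 in the combined knockdown against siHAND2 (limma adjusted p 0.17) and −0.17 against siMYCN (limma adjusted p 0.34). None of these was called as deposited or after rescaling, where they were 0.04, −0.07 and 0.17. Against siCtrl the combined level was 78.6%, a log2 change of −0.38 called as deposited (limma adjusted p 0.028), but not after rescaling (−0.03, limma adjusted p 0.80) or without combined replicate 3 (−0.15, limma adjusted p 0.23) or 2 (limma adjusted p 0.054), or siCtrl replicate 1 (limma adjusted p 0.056) or 2 (limma adjusted p 0.11). With no filter this change was not called either (limma adjusted p 0.11). Without combined replicate 1 the deposited differences from siHAND2 (−0.48, limma adjusted p 0.0049) and siMYCN (−0.39, limma adjusted p 0.013) were called. With rescaling and without combined replicate 3, the difference from siMYCN was called the other way (0.29, limma adjusted p 0.011).

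SLC43A1 (LAT3; 11:57252004-57283193, minus strand), a carrier of leucine and other large neutral amino acids that needs no heavy chain, was also a low transcript. It stood at 3.52, 4.66 and 3.96 CPM in siCtrl, 1.82, 1.80 and 1.95 with siMYCN, 2.82, 3.27 and 2.64 with siHAND2 and 2.09, 1.81 and 1.27 with both siRNAs, where the lowest value rests on about 52 reads. The siMYCN and combined ranges overlapped, and both lay below siHAND2 and siCtrl. Against siHAND2 the combined level was 59.2%, a log2 change of −0.53 (SE 0.13, limma adjusted p 0.0020), or −0.41 after rescaling (limma adjusted p 0.0045). The fall of −0.37 in siHAND2 (limma adjusted p 0.025) was not called after rescaling (−0.24, limma adjusted p 0.064). It was not called as deposited without siCtrl replicate 2 (limma adjusted p 0.13) or 3 (limma adjusted p 0.054), nor without siHAND2 replicate 1 (limma adjusted p 0.059) or 3 (limma adjusted p 0.093). With no filter it was not called either (limma adjusted p 0.062). Against siMYCN the difference was −0.08 (limma adjusted p 0.60), and 0.14 after rescaling.

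**Figure D2:**
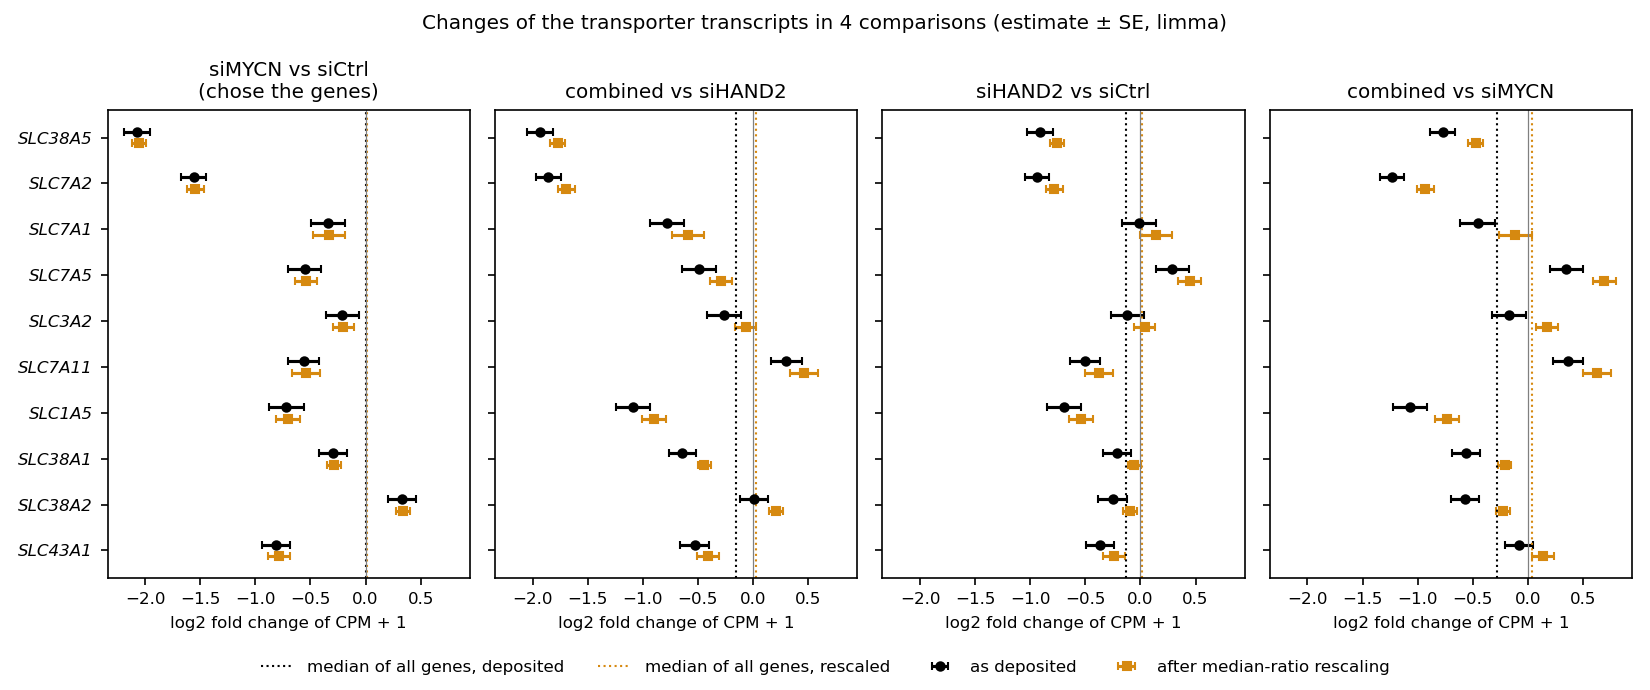
Log2 fold change of CPM + 1 (x axis) of each transporter (y axis) in 4 comparisons, as limma estimate ± SE from the values as deposited (circles) and after median-ratio rescaling (squares). Dotted lines are the medians of all 12680 genes tested. In the combined knockdown against siHAND2, SLC38A5 (−1.94) and SLC7A2 (−1.86) lie furthest below the all-gene median of −0.15, and SLC7A11 (0.30) lies above it.

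Counted together, 7 of the 10 transporters were called lower and none higher in the combined knockdown against siHAND2, the comparison whose log2 changes use no sample of the choice. The exceptions were SLC3A2, SLC38A2 and SLC7A11. The 7 include SLC38A5 and SLC7A2, around which the set was drawn up because they fell furthest with the same MYCN siRNA. Both also enter the rescaled count and the medians of the 10 below. Of all genes tested, 31.5% were called lower and 8.75% higher in that comparison. After rescaling 7 were called lower and 2 higher (SLC38A2 and SLC7A11), against 23.6% and 26.1% of all genes. The median log2 change of the 10 was −0.59 as deposited and −0.42 after rescaling, beside −0.15 and 0.03 for all genes. Without combined replicate 3, 6 were called lower and 1 higher as deposited, where 3229 and 1793 of all 12680 genes were.

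In siHAND2 against siCtrl, 5 were called lower (SLC38A5, SLC7A2, SLC7A11, SLC1A5 and SLC43A1) and none higher, against 30.4% and 12.3% of all genes. After rescaling 4 were called lower and 1 higher (SLC7A5), against 24.9% and 25.9% of all genes. In the combined knockdown against siMYCN, 6 were called lower and 2 higher, against 50% and 8.92% of all genes, and after rescaling 5 and 2, against 26.6% and 30% of all genes. In the combined knockdown against siCtrl 7 were called lower and none higher, against 50.1% and 17.4%, and after rescaling 6 and none, against 33% and 37.7%. In siMYCN against siCtrl, the comparison that chose them, 6 passed the threshold as lower and 1 as higher (7 and 1 after rescaling), where 16.3% and 17.4% of all genes did (22.5% and 25.4% after rescaling), and nothing is read from this count. The combined and siHAND2 comparisons with siCtrl share their control samples with it.

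How far the effects of the siRNAs added up was described by the combined change minus the sum of both single changes on the log2 scale, with no test since the choice of genes enters it. As deposited and after rescaling it was 0.14 and 0.28 for SLC38A5, −0.30 and −0.15 for SLC7A2, −0.44 and −0.26 for SLC7A1, and −0.37 and −0.19 for SLC1A5. It was −0.34 and −0.15 for SLC38A1, −0.32 and −0.13 for SLC38A2, 0.06 and 0.25 for SLC7A5, and 0.28 and 0.38 for SLC43A1. For SLC3A2 it changed sign with the scale, from −0.05 to 0.13. SLC7A11 had the largest value, 0.87 (1.00 after rescaling): each siRNA alone went with a lower level, and each went with a higher mean when added to the other.

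Ratios of a pair of transcripts within a sample do not depend on how the sample is scaled. The 6 pairs were chosen after their values were seen, within a transport class or a heterodimer, and with 3 samples against 3 the exact permutation test cannot go below p = 0.1 (0.133 when adjusted over the 24 tests). SLC38A5 over SLC38A2 was 17.5% ± 2.00 of the siCtrl mean in siMYCN (SD, n = 3), 62.0% ± 1.41 in siHAND2 and 14.0% ± 0.587 in the combined knockdown, with no overlap between groups. SLC38A1 over SLC38A2, the neighbouring pair on chromosome 12, was 64.6% ± 3.14, 103% ± 0.732 and 65.3% ± 1.61. It separated the groups with the MYCN siRNA from those without it, and siMYCN and the combined knockdown overlapped.

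Within the cationic class, SLC7A2 over SLC7A1 was 41.0% ± 3.58 with siMYCN, 52.0% ± 9.15 with siHAND2 and 21.5% ± 2.47 with both siRNAs, so SLC7A2 stood lower relative to SLC7A1 in all 3 of these groups than in siCtrl, with no overlap. SLC38A5 over SLC1A5 was 36.5% ± 3.65, 85.3% ± 10.3 and 42.5% ± 5.92. The light chain SLC7A5 over its heavy chain SLC3A2 was 78.8% ± 3.96 with siMYCN, 133% ± 9.35 with siHAND2 and 114% ± 11.5 with both siRNAs, and siMYCN lay below and both HAND2 siRNA groups above all siCtrl samples. SLC7A11 over SLC3A2 was 70.1% ± 13.9, 70.2% ± 16.1 and 111% ± 16.9. In that ratio the combined samples lay above both single knockdowns (exact permutation p = 0.1 each, two-sided) and overlapped siCtrl.

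**Figure D3:**
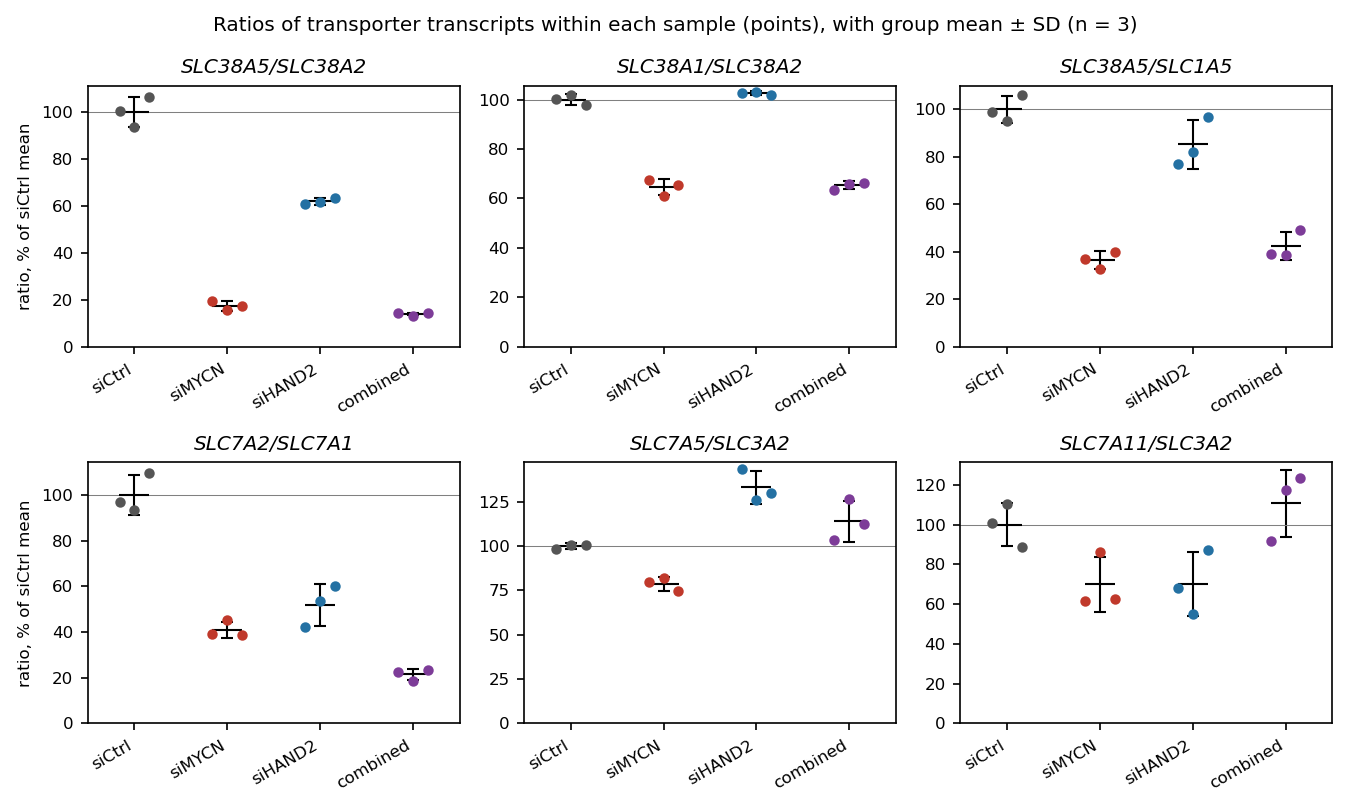
Ratio of 2 transporter transcripts within each sample as a percent of the siCtrl mean (y axis, from 0) in the 4 groups (x axis), with points for samples and bars for the mean ± SD of 3 samples. SLC38A5/SLC38A2 lies at 17.5% with siMYCN and 14.0% with both siRNAs, and SLC7A5/SLC3A2 is below 100% in siMYCN (78.8%) and above it in siHAND2 (133%).

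Compared per length of the canonical transcript, in CPM per kilobase, the siCtrl levels ran from 42.3 for SLC38A1, 39.5 for SLC38A2 and 31.1 for SLC3A2 through 24.6 for SLC1A5, 21.2 for SLC38A5 and 17.3 for SLC7A5 to 8.44 for SLC7A1, 5.07 for SLC7A2, 1.61 for SLC43A1 and 0.434 for SLC7A11. The members that fell furthest were thus neither the most nor the least abundant. The canonical transcript need not be the isoform expressed.

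Genes whose log2 level followed SLC38A5 most closely over the 12 samples, among 10191 other genes with a mean of at least 5 CPM, were TAF4B (Pearson r 0.996), NOP16 (0.996), NLE1 (0.994) and NPM1 (0.993). TAF4B encodes a TFIID subunit, NOP16 and NLE1 factors of ribosome biogenesis and NPM1 the nucleolar protein nucleophosmin. For SLC7A2 they were UTP20 (0.995), a ribosomal RNA processing factor, MTHFD1L (0.995), a mitochondrial folate enzyme, CCDC86 (0.993) and DNAAF5 (0.993). These are descriptions, since the 12 points are 4 groups of 3 that share group differences and scaling. NPM1, the most abundant, went from 1753 CPM in siCtrl to 861 with siMYCN, 1293 with siHAND2 and 624 with both siRNAs.

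Other genes of amino acid transport and use were read from 7 lists, with each named gene's log2 change given as deposited and then after rescaling. The lists overlap in a few genes. Of 42 other plasma membrane and lysosomal amino acid carriers, 19 were tested. Between the combined knockdown and siHAND2 8 of them were called lower and none higher (7 and 4 after rescaling), where 31.5% and 8.75% of all genes were (23.6% and 26.1% after rescaling), with a median log2 change of −0.18 (0.00 after rescaling) that stood near the all-gene medians of −0.15 and 0.03. SLC6A15, a sodium-coupled carrier of branched-chain amino acids in neurons, fell from 228 ± 14.9 CPM (SD, n = 3) in siHAND2 to 125 ± 23.9 (log2 change −0.88, limma adjusted p 6.0e-06, or −0.68). SLC16A10, a carrier of aromatic amino acids, fell from 6.69 ± 0.521 to 3.11 ± 0.700 CPM (−0.91, limma adjusted p 3.6e-06, or −0.77), and SLC6A17, a vesicular carrier of neutral amino acids, from 13.2 ± 1.31 to 8.42 ± 2.07 (−0.62, limma adjusted p 4.5e-04, or −0.44).

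With the HAND2 siRNA alone, 2 of these 19 were called higher and 2 lower (7 and 1 after rescaling), where 12.3% and 30.4% of all genes were (25.9% and 24.9% after rescaling). SLC43A2 (LAT4), the close relative of SLC43A1, rose from 8.31 ± 1.23 CPM in siCtrl to 18.2 ± 1.98 in siHAND2 (1.05, limma adjusted p 1.2e-06, or 1.19), while SLC43A1 stood at 71.9% of siCtrl. SLC6A6, the taurine carrier, rose from 16.3 ± 0.510 to 21.2 ± 1.05 CPM (0.35, limma adjusted p 0.012, or 0.50). SLC16A10 fell to 76.8% of siCtrl (−0.34, limma adjusted p 0.032), which was not called after rescaling (−0.20, limma adjusted p 0.091). As deposited, SLC6A6 was not called without siCtrl replicate 3 (limma adjusted p 0.052) or siHAND2 replicate 1 (limma adjusted p 0.055), and SLC16A10 not without siCtrl replicate 1 (limma adjusted p 0.085) or 3 (limma adjusted p 0.10), or siHAND2 replicate 1 (limma adjusted p 0.056) or 3 (limma adjusted p 0.12). The list's count of 4 called genes was 8 without combined replicate 3, and 2 without siCtrl replicate 3 or siHAND2 replicate 1. Of all 12680 genes 5411 were called, and 6941, 4303 and 4670 without these samples in the same order.

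Of 10 mitochondrial amino acid carriers 8 were tested, and 5 were called lower and none higher in the combined knockdown against siHAND2 (4 and 2 after rescaling; median −0.36, or −0.17). All-gene shares were 31.5% and 8.75% (23.6% and 26.1% after rescaling), with medians of −0.15 and 0.03, and 3 of the list were called lower without combined replicate 3 or siHAND2 replicate 2. Of all 12680 genes 3995 were called lower, and 3229 and 3079 without these samples in the same order. The ornithine carrier SLC25A15 stepped down from 41.9 ± 2.52 CPM in siCtrl to 25.3 ± 0.659 with siHAND2 and 16.7 ± 2.52 with both siRNAs, and both steps were called (−0.70, limma adjusted p 1.9e-05, or −0.55, then −0.58, limma adjusted p 2.6e-04, or −0.39). The aspartate-glutamate carrier SLC25A13 went from 48.8 ± 0.424 to 35.1 ± 2.11 and 24.0 ± 5.41 CPM (−0.46, limma adjusted p 0.0048, or −0.31, then −0.55, limma adjusted p 0.0012, or −0.36), and the serine carrier SFXN1 fell from 79.7 ± 5.18 to 60.1 ± 12.3 in the second step (−0.42, limma adjusted p 0.0091, but −0.22 after rescaling, limma adjusted p 0.0033).

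Of 17 tested enzymes that use or make glutamine, glutamate and asparagine, 13 were called lower in the combined knockdown against siHAND2 and none higher (12 and 1 after rescaling; median −0.63, or −0.43), where 31.5% and 8.75% of all genes were (23.6% and 26.1% after rescaling). CAD, which starts pyrimidine synthesis from glutamine, fell from 140 ± 16.9 to 59.5 ± 5.99 CPM (−1.22, limma adjusted p 5.1e-08, or −1.02). PPAT and PFAS, glutamine-using enzymes of purine synthesis, fell from 53.0 ± 3.16 to 23.2 ± 4.44 (−1.17, limma adjusted p 9.7e-08, or −0.98) and from 114 ± 10.3 to 53.1 ± 9.30 CPM (−1.10, limma adjusted p 3.0e-07, or −0.90). With the HAND2 siRNA alone 9 of the 17 were called lower and none higher (8 and 1 after rescaling), where 30.4% and 12.3% of all genes were (24.9% and 25.9% after rescaling). Among them were PSAT1 of serine synthesis at 59.6% of siCtrl (−0.73, or −0.58), PPAT at 61.1% (−0.70, or −0.54) and OAT, ornithine aminotransferase, at 64.3% (−0.62, or −0.47). Without siHAND2 replicate 3 the count of 9 was 5, and that of all genes called went from 5411 to 4461 of 12680.

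Of 6 branched-chain amino acid enzymes 3 were called lower in the combined knockdown against siHAND2, on both scales, and none higher (median −0.38, or −0.20 after rescaling), where 31.5% of all genes were called lower (23.6% after rescaling). The cytosolic transaminase BCAT1 fell from 396 ± 27.1 to 194 ± 32.2 CPM (−1.04, limma adjusted p 5.4e-07, or −0.84), and BCKDHB, a subunit of the ketoacid dehydrogenase, from 19.7 ± 1.09 to 13.9 ± 1.27 (−0.47, limma adjusted p 9.9e-04, but −0.28 after rescaling, limma adjusted p 0.0020). In siHAND2 against siCtrl 1 of the 6 was called lower, BCKDHB (−0.29, limma adjusted p 0.031, or −0.13), and none after rescaling or without any single siCtrl or siHAND2 sample (limma adjusted p 0.057 to 0.14). Without combined replicate 1 all 6 were called lower against siHAND2, where 6010 of all 12680 genes were, against 3995 with every sample.

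SLC7A11 supplies cystine for glutathione. Of 8 genes of glutathione synthesis, recycling, use and breakdown, of which GCLC, GCLM and GSS make it, 6 were called lower and 1 higher in siHAND2 against siCtrl (6 and 2 after rescaling). All-gene shares were 30.4% and 12.3% (24.9% and 25.9% after rescaling), and the list had a median of −0.40 (−0.24 after rescaling) beside −0.14 and 0.01 for all genes. GCLM, the modifier subunit of glutamate-cysteine ligase, fell from 21.1 ± 0.999 to 13.3 ± 1.08 CPM (−0.64, limma adjusted p 8.0e-05, or −0.49), and GSS, glutathione synthetase, from 23.0 ± 1.25 to 16.9 ± 1.09 (−0.42, limma adjusted p 0.011, but −0.27 after rescaling, limma adjusted p 0.0071). CHAC2, which degrades glutathione and overlaps ASB3 on the other strand, fell to 55.2% of siCtrl (−0.78, limma adjusted p 4.2e-06, or −0.63). GGT7 rose to 133% (0.38, limma adjusted p 0.0078, or 0.52). Without siCtrl replicate 1 neither GSS (limma adjusted p 0.051) nor GGT7 (limma adjusted p 0.053) was called. With both siRNAs, against siHAND2, 5 were called lower and 1 higher, and after rescaling 3 and 3, where 31.5% and 8.75% of all genes were, and 23.6% and 26.1% after rescaling. The 3 with the largest falls were GSR, glutathione reductase (−0.57, limma adjusted p 7.2e-04, or −0.38), GCLM (−0.52, limma adjusted p 8.8e-04, or −0.34) and GCLC, the catalytic subunit of the ligase (−0.50, limma adjusted p 0.0012, or −0.31).

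The 15 tested amino acid response genes, ATF4 and targets of ATF4, went in both directions. PSAT1 and ASNS are also in the list of glutamine enzymes, CHAC1 in that of glutathione and SESN2 in that of mTORC1, so these counts overlap. With both siRNAs, against siHAND2, 4 were called lower and 3 higher (3 and 7 after rescaling; median −0.04, or 0.15), where 31.5% and 8.75% of all genes were (23.6% and 26.1% after rescaling). PSAT1 and PHGDH of serine synthesis fell by 0.77 (limma adjusted p 2.1e-05) and by 0.69 (limma adjusted p 2.6e-04) on the log2 scale, or −0.58 and −0.49 after rescaling. EIF4EBP1, a translation repressor, fell by 0.43 (limma adjusted p 0.0064), but −0.23 after rescaling (limma adjusted p 0.0035). The stress transcription factors DDIT3 and ATF3 rose from 4.64 ± 0.297 to 15.5 ± 1.62 CPM (1.54, limma adjusted p 6.1e-10, or 1.73) and from 3.41 ± 0.459 to 10.7 ± 2.68 CPM (1.38, limma adjusted p 5.0e-08, or 1.57). DDIT3 overlaps MARS, at a mean of 123 CPM, on the other strand, and whether reads were counted by strand is not given in the sources used here. In siHAND2 against siCtrl 5 of the 15 were called lower and 1 higher (5 and 3 after rescaling), near the all-gene share called lower of 30.4% as deposited (12.3% were higher, and after rescaling 24.9% and 25.9%). PHGDH changed by −0.76 (limma adjusted p 6.9e-05, or −0.60), ATF4 itself by −0.51 (limma adjusted p 0.0032, or −0.35) and DDIT3 by 0.55 (limma adjusted p 2.9e-04, or 0.67). Without combined replicate 1 the counts of 5 lower and 1 higher were 7 and 3. Those of all 12680 genes went from 3855 and 1556 to 4837 and 1849.

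Of 27 tested genes of amino acid sensing by mTORC1, 5 were called lower and 1 higher in the combined knockdown against siHAND2, and 3 lower and 10 higher after rescaling, where 31.5% and 8.75% of all genes were (23.6% and 26.1% after rescaling), with medians of −0.15 and 0.03 that match those of all genes. SEH1L, a subunit of the GATOR2 complex and of the nuclear pore, fell from 48.6 ± 5.28 to 25.2 ± 3.18 CPM (−0.92, limma adjusted p 1.3e-06, or −0.73). The Rag GTPase gene RRAGD fell (−0.54, limma adjusted p 0.0010, but −0.35 after rescaling, limma adjusted p 2.2e-04), as did RPTOR, the mTORC1 scaffold (−0.49, limma adjusted p 0.0023, but −0.29 after rescaling, limma adjusted p 0.0017), and the Rag gene RRAGB rose from 9.56 ± 0.691 to 13.9 ± 3.33 CPM (0.47, limma adjusted p 0.0051, or 0.66). In siHAND2 against siCtrl 9 were called lower and 1 higher (6 and 6 after rescaling), where 30.4% and 12.3% of all genes were (24.9% and 25.9% after rescaling), so the shares called lower were near those of all genes. The genes that the rule names here were LAMTOR5 of the Ragulator complex at 72.4% of siCtrl (−0.45, limma adjusted p 0.0018, or −0.29), the GATOR2 genes MIOS at 75.7% (−0.39, limma adjusted p 0.011, or −0.24) and SEH1L at 76.5% (−0.38, limma adjusted p 0.010, or −0.23), and the arginine sensor relative CASTOR2 at 146% (0.53, limma adjusted p 0.0018, or 0.69). CASTOR2 lies in a stretch with many listed pseudogenes, so its reads may be shared and its value is uncertain. The 10 genes called in siHAND2 were 3 without siCtrl replicate 1 or siHAND2 replicate 3, 4 without siCtrl replicate 3 and 6 without siHAND2 replicate 1 or 2. Of all 12680 genes 5411 were called, and 4308, 4461, 4303, 4670 and 4541 without these samples in the same order. MIOS was not called without siHAND2 replicate 3 (limma adjusted p 0.059), nor SEH1L without it (limma adjusted p 0.074) or without siCtrl replicate 1 (limma adjusted p 0.060). Against siHAND2, 12 genes were called without combined replicate 1, of which 11 were lower. Of all 12680 genes 6962 were called in that setting, of which 6010 were lower.

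**Figure D4:**
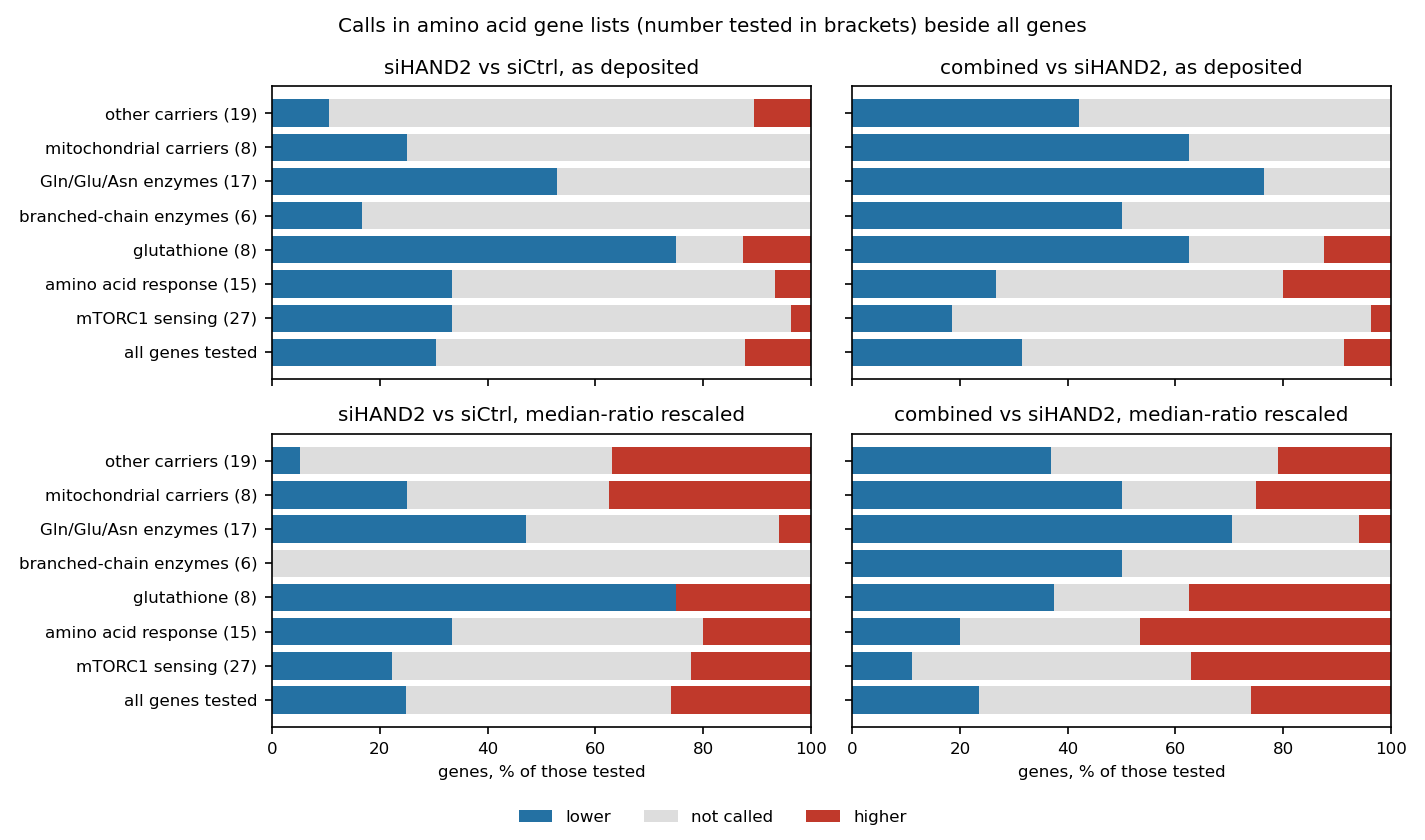
Percent of tested genes (x axis) called lower, not called or called higher in each list (y axis, number tested in brackets) and in all genes, for siHAND2 against siCtrl (left) and the combined knockdown against siHAND2 (right), as deposited (top) and after rescaling (bottom). The enzymes of glutamine, glutamate and asparagine have 13 of 17 genes called lower in the combined knockdown against siHAND2 as deposited and 12 of 17 after rescaling.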

How the data were processed

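RNA from 12 IMR32 samples was sequenced. The authors deposited CPM values for 27514 genes. Per the file headers and the submitters' processing notes, reads were aligned with STAR 2.5.1 to hg19 (GRCh37) and processed in Partek. The counting rule, its use of strand and any filter are not given in the sources used here. A constant of 0.0001 CPM underlies every deposited value. From the steps between low values, 1 read was worth 0.0156 to 0.0316 CPM, so 3 reads are 0.0468 to 0.0949 CPM (counting error only). Of values below 20 reads 88.5 to 90.0% came out whole within a tolerance of 0.05 reads, so no count test was run.

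The 12680 genes with a mean of at least 1 CPM were tested on the log2(CPM + 1) scale. A model of 4 groups was fitted to all samples (limma 3.58.1 in R 4.3.3, eBayes with trend, 8 residual degrees of freedom, two-sided, Benjamini-Hochberg over all genes tested), and genes with an adjusted p under 0.05 are termed called. Fold changes on this scale understate changes of low genes. The model was tested on simulated data. Estimated reads of samples in a group were compared gene by gene, and the chi-square averaged 3.35 to 37.8, so no pair of samples was counted as 1.

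The groups share replicate numbers from the titles. Between siCtrl and siMYCN, samples with the same number deviated from their group means with correlations of 0.15 to 0.44, and those of siMYCN and siHAND2 samples were also all over 0.1. In the tested comparisons they were mixed. For numbers 1 to 3 they were 0.32, −0.07 and 0.42 between siCtrl and siHAND2, and −0.08, 0.41 and 0.08 between siCtrl and the combined knockdown. They were −0.10, −0.19 and 0.36 between siHAND2 and the combined knockdown, and −0.02, 0.04 and 0.19 between siMYCN and the combined knockdown. The main model left the replicate number out.

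The members and the 7 gene lists were chosen with earlier results of these data known. Named list genes are the 3 largest rises and 3 largest falls of each list among called genes with a mean of at least 5 CPM and no overlap between groups, in the combined knockdown and siHAND2 comparisons. The 4 most alike genes of SLC38A5 and SLC7A2 are those with the highest Pearson r. Gene positions are the table's, in hg19, transcript lengths are from GENCODE, and promoter windows are from RefSeq. The alternatives tried were another pseudocount, other filters, 2 rescalings, no trend, only the compared groups, a replicate block, and each sample left out. Rescaling without combined replicate 3 and the ratio alternatives were chosen after seeing the data. A cell type marker of the fixed list is not reported here.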

Additional observations from a re-analysis of the deposited data

Results flagged for a closer look

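SLC7A11 had a combined change that exceeded the sum of both single changes by 0.87 on the log2 scale. The MYCN siRNA went with a lower level without the HAND2 siRNA (4.18 ± 0.768 CPM in siCtrl, SD, n = 3, and 2.52 ± 0.562 in siMYCN) and with a higher one in its presence (2.64 ± 0.300 with siHAND2 and 3.52 ± 0.602 with both siRNAs). The difference was not tested, since the choice of genes enters it.

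Among the 95 list genes tested, 4 had a MYCN siRNA effect that differed with and without the HAND2 siRNA by limma's interaction term, adjusted over all genes. The share of all genes called for this term is not given here, so the count is not read as a result about the lists. DDIT3 had an interaction of 1.04 (limma adjusted p 3.0e-04), with 2.84 ± 0.280 CPM in siCtrl, 4.45 ± 0.293 with siMYCN, 4.64 ± 0.297 with siHAND2 and 15.5 ± 1.62 with both siRNAs. ATF3 had 1.02 (limma adjusted p 0.0023), with 2.53 ± 0.104, 3.55 ± 0.157, 3.41 ± 0.459 and 10.7 ± 2.68 CPM. The carrier SLC43A2 had −0.91 (limma adjusted p 0.0085): it stood at 17.5 ± 0.194 CPM in siMYCN, 18.2 ± 1.98 in siHAND2 and 19.8 ± 4.91 with both siRNAs, against 8.31 ± 1.23 in siCtrl. The leucine sensor relative SESN3 had −0.66 (limma adjusted p 0.036), with 17.0 ± 1.46, 22.7 ± 1.45, 21.1 ± 2.62 and 17.5 ± 3.58 CPM, and −0.48 after rescaling (limma adjusted p 0.082). That term missed the threshold when any single siCtrl or siMYCN sample, siHAND2 replicate 1 or 2, or combined replicate 3 was left out (limma adjusted p 0.052 to 0.12).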

How the results depend on the processing

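Under the alternatives run, SLC38A5, SLC7A2 and SLC1A5 kept their direction and call in all 4 tested comparisons. The number of transporters called in siHAND2 against siCtrl, 5, was 3 with a mean of at least 5 CPM (SLC7A11 and SLC43A1 are then not tested) and 8 with only the compared groups, and ranged from 4 to 8 with single samples left out, with 8 without combined replicate 3. The count over all genes, 5411 of 12680, moved too. It was 4440 with a mean of at least 5 CPM, where fewer genes are tested, and 7191 with only the compared groups. With single samples left out it ranged from 4303 to 6941, with 6941 without combined replicate 3. In the combined knockdown against siMYCN the number of transporters was 8, 5 with no filter and 5 to 8 with single samples left out. Over all genes it was 7471 of 12680, 7687 with no filter, where more genes are tested, and 6414 to 8960 with single samples left out. Against siHAND2 the number of transporters was 7, and 6 to 8 with single samples left out, where 5104 of all genes were called, and 3905 to 6962. The 4273 genes called in siMYCN against siCtrl became 6963 with only the compared groups, 6480 with the replicate block and rescaling, and 6511 with rescaling without combined replicate 3. With the replicate block alone, 6 transporters were called in siHAND2 against siCtrl, 7 in the combined knockdown against siCtrl, 8 against siHAND2 and 8 against siMYCN. Of all 12680 genes 6140, 8951, 5839 and 8069 were called in the same order. The block added the calls of SLC7A5 in siHAND2 against siCtrl (0.29, limma adjusted p 0.034) and of SLC7A11 in the combined knockdown against siHAND2 (0.30, limma adjusted p 0.047), and 8 of 12 samples lay closest to another of their own number.

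Differences that changed sign did so with another scaling or a left-out sample. As deposited, 1 of them was called, that of SLC3A2 in the combined knockdown against siCtrl. Values follow for median-ratio rescaling (the same with the replicate block), rescaling to the listed sum, and rescaling without combined replicate 3. For SLC7A1 in siHAND2 against siCtrl they were 0.14, 0.11 and 0.14, and for SLC3A2 0.0386, 0.0115 and 0.0409. In the combined knockdown against siCtrl they were 0.15, 0.14 and 0.28 for SLC7A5, 0.0861, 0.0779 and 0.114 for SLC7A11, and 0.12, 0.11 and 0.17 for SLC38A2. The values without combined replicate 3 were called higher for SLC7A5 (limma adjusted p 0.010) and SLC38A2 (limma adjusted p 0.017). SLC7A5 was also called higher there with rescaling and the replicate block (limma adjusted p 0.037). Against siMYCN they were 0.17, 0.11 and 0.29 for SLC3A2 and 0.14, 0.10 and 0.20 for SLC43A1, of which 0.29 for SLC3A2 was called (limma adjusted p 0.011). Rescaling without combined replicate 3 also turned SLC3A2 against siCtrl (0.0865) and siHAND2 (0.0455). With single samples left out, values ranged from −0.20 to 0.14 for SLC7A1 in siHAND2 against siCtrl, −0.35 to 0.0372 for SLC7A5 in the combined knockdown against siCtrl, −0.39 to 0.0579 for SLC3A2 and −0.18 to 0.0447 for SLC43A1 against siMYCN, and −0.12 to 0.18 for SLC38A2 against siHAND2. The cause was not tested.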
